A study of Mus musculus with 47 samples.

Results

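H19 and Igf2 are neighbouring imprinted genes on mouse chromosome 7, and they are described here through the ChIP-seq peaks that fell on them in liver tumours and control liver. Members were selected on position: every peak that overlapped by at least 1 bp either of 2 windows of genome build mm9, chr7:149745000-149766000 for H19 (21001 bp) and chr7:149830000-149858000 for Igf2 (28001 bp). The rule took 144 of the 713214 peaks in 46 lists, 72 in each window. The locus was chosen with the peak lists in view, so its values are a description and no test was run on them. Of the 144 peaks, 85 were Myc peaks, 23 were RNA polymerase II (RNAPII) peaks, 21 were H3K4me3 peaks and 15 were H3K27ac peaks.

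The study mapped Myc, RNAPII and both histone marks in FVB mice, in which a tetracycline-controlled Myc transgene (tet-Myc) drove liver tumours. The switched-off tumours (3 libraries per antibody) carried tet-Myc and the transactivator LAPtTA, and doxycycline food had silenced the transgene for 16 h. The tumours with Myc on (6 Myc libraries and 4 for each of the other antibodies) carried the same alleles, with expression induced in the liver before birth. The control livers (4 libraries per antibody) were liver tissue: number 1 carried tet-Myc alone without expression, number 2 carried LAPtTA alone, and numbers 3 and 4 were wild type. The labels name a wild-type and a mutant form of tet-Myc without saying which tumour carried which, and do not state whether replicate libraries were made from different mice. The tissue was a tumour nodule or a piece of liver, so more marked cells and more mark per cell cannot be told apart. The peak lists do not separate the maternal from the paternal chromosome, so imprinting itself was not measured.

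H19 encodes a long non-coding RNA that is transcribed from the maternal chromosome, is abundant in fetal liver and is silenced after birth. Igf2 encodes insulin-like growth factor 2, a fetal growth factor transcribed from the paternal chromosome through several promoters and also silenced in adult rodent liver. A methylation-sensitive control region upstream of H19 decides which of the genes can use enhancers that lie beyond the 3′ end of H19. RNAPII peaks mark loaded polymerase, H3K4me3 lies mainly at active promoters, and H3K27ac lies at active promoters and enhancers. Myc binds DNA with its partner Max, preferring the E-box letters CACGTG.

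RefSeq lists H19 as a non-coding gene of 2617 bp that holds the microRNA gene Mir675, and Igf2 as a protein-coding gene of 16049 bp that holds Mir483. Both genes were matched by name in the RefSeq table of GRCm38.p6, another build than the mm9 of the peaks, so none of its positions was placed on the peaks. In that table the genes before H19 are Tnnt3, Mrpl23 and Nctc1, and Igf2 is followed by Igf2os, an overlapping antisense RNA, and Ins2. H19 and Igf2 are read from the minus strand. The H19 window therefore has the 5′ side of its gene toward its higher coordinates, facing the Igf2 window across a gap of 64.0 kb. Mature miR-675 is cut from the H19 transcript and is shown as the sequence product of that gene, from RefSeq (GRCm38.p6, chr7:142577078-142577099 for the 3p arm and chr7:142577112-142577133 for the 5p arm, minus strand). Capitals mark the seed, bases 2 to 8, and the seeds of the arms differ.
mmu-miR-675-5p: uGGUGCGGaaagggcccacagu
mmu-miR-675-3p: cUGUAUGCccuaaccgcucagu

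RefSeq gave 4 promoter windows of 300 bases for Igf2, spread over 9.62 kb of the GRCm38.p6 minus strand. They are relevant because RNAPII, H3K4me3 and Myc peaks all lay in the Igf2 window. These Igf2 promoters held no match on either strand to the E-box CACGTG, to its variant CACGCG or to TATAAA. RefSeq gave no H19 promoter, so none was searched, and the sequence under the Myc peaks was not searched either. Over all 32851 RefSeq mouse promoters of that length, 7.15% held CACGTG, 9.27% held CACGCG and 13.62% held TATAAA. The GC-box letters GGGCGG, found in 35.66% of all promoters on either strand, were present once in the promoter at chr7:142658755-142659054, on the opposite strand 17 bases before the start. They occurred at 2 places in the promoter at chr7:142657447-142657746, at positions -100 and -85. These promoters were 64.7% and 63.3% G or C, against 52.3% and 49.7% in the Igf2 promoters without a match and a median of 52.7% over all promoters. Both are printed with GGGCGG or its reverse complement in capitals.
Igf2 promoter 3: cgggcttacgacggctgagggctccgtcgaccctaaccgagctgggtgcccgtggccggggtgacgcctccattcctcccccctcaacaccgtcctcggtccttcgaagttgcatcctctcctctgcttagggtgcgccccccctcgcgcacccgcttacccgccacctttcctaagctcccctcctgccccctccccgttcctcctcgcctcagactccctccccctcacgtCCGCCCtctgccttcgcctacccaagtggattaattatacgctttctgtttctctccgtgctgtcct
Igf2 promoter 4: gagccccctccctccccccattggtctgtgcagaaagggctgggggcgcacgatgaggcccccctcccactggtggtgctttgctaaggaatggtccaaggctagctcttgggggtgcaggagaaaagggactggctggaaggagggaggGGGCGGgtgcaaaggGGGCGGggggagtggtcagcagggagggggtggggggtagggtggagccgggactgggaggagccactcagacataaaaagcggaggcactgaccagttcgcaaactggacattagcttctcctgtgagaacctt

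Peak lists differ in length across the series, and this touches every value below. Myc lists held 98 to 331 peaks in switched-off tumours, 19269 to 55763 in tumours with Myc on and 1002 to 8499 in control livers. RNAPII lists held 11916 to 14834 peaks in switched-off tumours, 12708 to 17868 in tumours with Myc on and 15152 to 20931 in control livers. H3K4me3 lists held 18502 to 19876 in switched-off tumours, 14502 to 14942 in tumours with Myc on and 12999 to 15821 in control livers. H3K27ac lists held 13688 to 17856 in switched-off tumours, 12805 to 15510 in tumours with Myc on and 9696 to 14140 in control livers. The reads behind each list are unknown, so a window without a peak means only that none was called there. Replicate lists of one group shared at most 1.02% of their intervals exactly, so no library appeared to have been deposited in duplicate.

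Both windows held peaks of every antibody in tumours with Myc on and were nearly empty in control liver. Myc peaks were present in all 6 tumours with Myc on and in none of the switched-off tumours or control livers. RNAPII and H3K27ac peaks lay on both windows in every tumour library, with Myc off or on, and in no control liver. H3K4me3 lay on both windows in every tumour library as well, and touched them in only 2 control livers. The map of called peaks shows this for each of the 46 libraries.

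**Figure D1:**
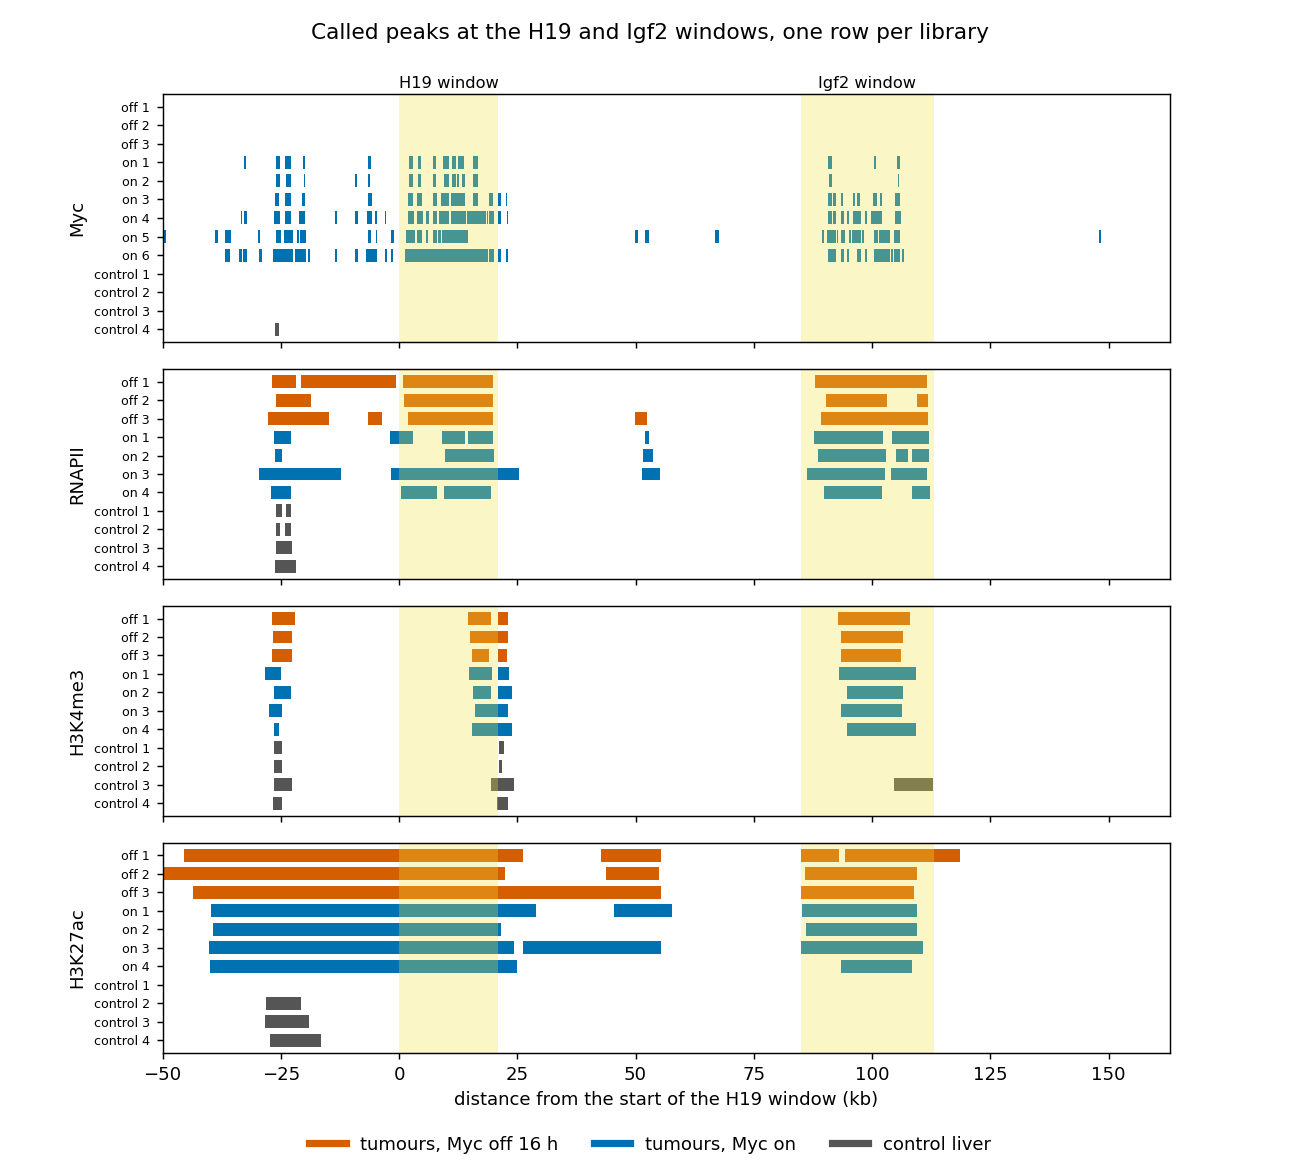
Called peaks of each library (one row each, bars from peak start to peak end) by antibody, against distance in kb from the start of the H19 window; shaded bands are the H19 and Igf2 windows. The 4 control livers have no Myc, RNAPII or H3K27ac bar inside either band, whereas RNAPII and H3K27ac bars are in both bands in all 3 switched-off tumours and all 4 tumours with Myc on.

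Myc covered much of the H19 window while the transgene was on. The switched-off tumours had 0% of the H19 window under Myc peaks in all 3 libraries, the tumours with Myc on had a lowest value of 27.4%, a median of 46.1% and a highest of 89.1%, and the 4 control livers had 0%. The tumours with Myc on averaged 52.0% ± 23.6 (SD, n = 6), and no other group reached their lowest library. Every tumour with Myc on lay above every control liver, as was true of 32.5% of the 63735 windows of that length with Myc coverage anywhere. Every switched-off tumour lay below every tumour with Myc on, as in 37.1% of those windows. Non-overlap of this kind was therefore common for Myc. In size, 0 of the 63735 other windows had a difference from control liver as large as the 52.0 points of H19. That rank is a description only, since the H19 window was chosen with the peak lists in view.

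Coverage of H19 by Myc differed among the tumours and went with the length of the list. The tumours numbered 1 and 2 had the shortest lists, 19269 and 21570 peaks, and the lowest coverage, 32.6% and 27.4%. Tumour 6 had the longest list, 55763 peaks, and the highest coverage, 89.1%, most of it from a single peak of 17485 bp. Tumours 3, 4 and 5 had 45.6%, 70.7% and 46.6% with lists of 25742, 38814 and 41558 peaks. The part of list length in these differences was not tested. By the authors' deposited score, the best H19 peak ranked 240 of 19269, 24 of 21570 and 50 of 25742 in tumours 1 to 3. It ranked 51 of 38814, 664 of 41558 and 415 of 55763 in tumours 4 to 6. The best of several peaks, in a window chosen with the lists in view, is favoured to rank high. Other H19 peaks ranked as low as 13339 of 19269 in tumour 1 and 20879 of 21570 in tumour 2.

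Myc occupied fixed places within the H19 window. In the window 7 segments, 160 to 1010 bp long and 4390 bp in all, were under a Myc peak in every tumour with Myc on. The longest, chr7:149754486-149755495, was under the best-scoring H19 peak in tumours 1, 2 and 5, and chr7:149747098-149747904 in tumours 3 and 4; in tumour 6 the single 17485-bp peak covered all 7 segments. That second segment, 807 bp long, lay closest to the low-coordinate end of the window, on the 3′ side of the gene. Peaks there scored 115.29 to 549.54, with ranks of 330, 187, 50, 51, 1166 and 415 in tumours 1 to 6. The other segments were at chr7:149749026-149749584, chr7:149752275-149752850, chr7:149756230-149757043, chr7:149757480-149757639 and chr7:149758317-149758780. At the last pair of places tumours 1 and 2 had weak peaks, with scores between 8.23 and 14.32, so their constancy rests on low-ranked calls in those libraries. These segments were chosen after their values were seen.

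The Igf2 window had less Myc on average. The switched-off tumours had 0% of it under Myc peaks, the tumours with Myc on had a lowest value of 3.40%, a median of 23.4% and a highest of 38.0%, and the control livers had 0%. The tumours with Myc on averaged 21.6% ± 14.2 (SD, n = 6). Tumours with Myc on lay above control livers without overlap, as in 35.3% of 54964 windows of that length, and switched-off tumours lay below tumours with Myc on, as in 40.3% of them. A difference from control liver of at least 21.6 points was found in 232 of those windows. The best Igf2 peak ranked between 6.45% and 61.7% of the way down its list, against 0.11% to 1.60% for the best H19 peak.

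Merging Myc peaks over all libraries gave 14 regions in the Igf2 window, of which 6 were present in at least 3 of the 6 tumours with Myc on. Regions at chr7:149835486-149837469 and chr7:149849574-149851040 had a peak in all 6 tumours and were covered on average to 68.0% ± 26.0 and 67.7% ± 31.7 (SD, n = 6). The widest region, chr7:149844881-149848805, had a peak in 5 tumours and gave the highest Igf2 score in tumours 1, 3, 4 and 6, but had none in tumour 2. The segments shared by all 6 tumours were short, 662 bp at chr7:149835835-149836496 and 290 bp at chr7:149850419-149850708. Tumour 2, with Igf2 coverage of 3.40%, had no Myc peak outside them.

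RNAPII was loaded over most of both windows in tumours. At H19 it covered 91.1%, 89.6% and 85.5% of the window in switched-off tumours 1 to 3, 61.3%, 50.0%, 100% and 83.6% in tumours with Myc on 1 to 4, and 0% in the 4 control livers. The group means were 88.7% ± 2.90 (SD, n = 3), 73.7% ± 22.4 (SD, n = 4) and 0%. Both tumour groups lay above control liver without overlap, and they overlapped each other. Tumours with Myc on lay above control livers in 4.66% of 52021 windows of H19 length, and switched-off tumours in 8.55% of them. In 54 of those windows the difference between tumours with Myc on and control livers was at least the 73.7 points of H19.

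At Igf2, RNAPII covered 84.6%, 53.9% and 80.4% of the window in switched-off tumours, 80.4%, 72.2%, 86.0% and 57.5% in tumours with Myc on, and 0% in control livers. Means were 73.0% ± 16.7 (SD, n = 3), 74.0% ± 12.4 (SD, n = 4) and 0%. Tumours with Myc on lay above control livers, as in 5.04% of 43676 windows of that length, and switched-off tumours did so as in 8.97%. In 18 of those windows the difference of tumours with Myc on from control livers was at least 74.0 points. The RNAPII lists carry no score, so these peaks could not be ranked.

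RNAPII peaks shared long stretches within each group. In switched-off tumours 1 peak of 19.1, 18.8 and 18.0 kb lay over H19 in each library, with chr7:149746843-149764783 under all 3. In tumours with Myc on, 4 libraries gave 7 peaks there, and chr7:149754663-149758887 and chr7:149759586-149764488 were under RNAPII in all 4. At Igf2, RNAPII peaks of all 3 switched-off tumours shared chr7:149835271-149848090 and chr7:149854550-149856596. Those of all 4 tumours with Myc on shared chr7:149834836-149847150 and chr7:149853430-149856542. The high-coordinate end of RNAPII at H19 lay between 149764488 and 149765160 in every tumour library but tumour 3 with Myc on, where a 27.1 kb peak ran past the window. The low-coordinate ends differed more: the first RNAPII peak at H19 began between 149745843 and 149746843 in switched-off tumours, and between 149743182 and 149754663 in tumours with Myc on.

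H3K4me3 lay on one end of the H19 window and in the middle of the Igf2 window. At H19 it covered 23.9%, 28.5% and 17.8% of the window in switched-off tumours, 23.6%, 18.5%, 23.8% and 26.3% in tumours with Myc on, and 0%, 0%, 6.96% and 0.933% in control livers 1 to 4. Means were 23.4% ± 5.38 (SD, n = 3), 23.1% ± 3.25 (SD, n = 4) and 1.97% ± 3.35 (SD, n = 4). Every tumour library of either kind lay above every control liver, and both kinds of tumour overlapped. Tumours with Myc on lay above control livers without overlap in 9.03% of 43689 windows of H19 length, and switched-off tumours in 35.9%. The difference of tumours with Myc on from control livers reached the 21.1 points of H19 in 184 windows.

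The H3K4me3 signal on H19 was a compact block on the 5′ side of the window. The histone lists give sub-intervals inside each peak, here named blocks. At H19 these blocks lay between 149761435 and 149764049 in every tumour library except switched-off tumour 2, whose first block began at 149760336. They summed to 2572, 3104 and 2443 bp in switched-off tumours, 2231, 2414, 2233 and 2499 bp in tumours with Myc on, and 0 bp in all 4 control livers. For scale, RefSeq gives the H19 gene a length of 2617 bp. Counted by blocks alone, the H19 difference of tumours with Myc on from control livers was 11.2 points and that of switched-off tumours 12.9 points.

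The control livers' few H3K4me3 bases in the H19 window came from its edge. A separate H3K4me3 peak just beyond the window's end was present in all 11 H3K4me3 libraries, control livers included. Its blocks, 218 to 624 bp long, shared chr7:149766355-149766560, which begins 355 bp outside the window. Control livers 3 and 4 reached 1462 and 196 bp into the window from that peak, and had no block inside. Presence at H19 among control livers was accordingly 2 of 4 with an overlap of 1 bp, 1 of 4 with at least 200 bp and 0 of 4 by peak midpoint. The edge peak scored 3282, 35678 and 4645 in switched-off tumours, 3707, 2214, 5471 and 13331 in tumours with Myc on, and 1632, 1025, 2753 and 1507 in control livers. In switched-off tumour 2 and tumours 3 and 4 with Myc on it was joined to the H19 peak, whose score is then the value given. In control livers 1 and 2 the edge peak lay wholly outside the window.

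At Igf2, H3K4me3 covered 54.2%, 46.8% and 45.2% of the window in switched-off tumours, 58.0%, 42.3%, 45.9% and 52.3% in tumours with Myc on, and 0%, 0%, 29.0% and 0% in control livers. Means were 48.8% ± 4.81 (SD, n = 3), 49.6% ± 6.95 (SD, n = 4) and 7.25% ± 14.5 (SD, n = 4). Both kinds of tumour lay above every control liver and overlapped each other. Non-overlap of tumours with Myc on above control livers was found in 9.23% of 39162 windows of that length, and of switched-off tumours above control livers in 37.0%. The 42.4 points between tumours with Myc on and control livers were reached in 0 of the 39162 other windows. That rank is a description only, since the Igf2 window was chosen with the peak lists in view and the others lay at fixed steps. The same difference was 26.2 points by blocks and 0 points under the score limit given below. All 4 tumours with Myc on shared chr7:149839690-149851353, 11664 bp, and all 3 switched-off tumours shared chr7:149838539-149851196, 12658 bp.

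Control liver 3 was the one control with H3K4me3 on Igf2, and its signal lay elsewhere in the window. Its peak spanned chr7:149849672-149857793 and ranked 14905 of the 15011 in its list, and its block was 322 bp at chr7:149855492-149855813. In the tumours the Igf2 blocks lay between 149839597 and 149850602, below that position in every library. They covered 36.6% ± 1.17 of the window in switched-off tumours (SD, n = 3), 26.5% ± 2.61 in tumours with Myc on (SD, n = 4) and 0.288% ± 0.575 in control livers (SD, n = 4). By blocks the switched-off tumours, at 35.3% to 37.5%, lay above the tumours with Myc on, at 23.8% to 29.1%, a difference of 10.2 points that whole peaks did not show. By whole peaks, 31.0% of windows of Igf2 length had more H3K4me3 in every switched-off tumour than in every tumour with Myc on. The share by blocks was not computed.

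These H3K4me3 peaks were of middling or low score. The best Igf2 peak ranked 44.8% to 53.1% of the way down its list in switched-off tumours and 58.6% to 73.0% in tumours with Myc on. The best H19 peak ranked 36.4% to 59.2% down in switched-off tumours and 52.5% to 74.3% in tumours with Myc on. With only peaks at or above 12027.5, the median score of all H3K4me3 peaks, the difference of tumours with Myc on from control livers was 6.58 points at H19 and 0 at Igf2. The same limit left differences of 16.7 points at H19 and 48.8 points at Igf2 between switched-off tumours and tumours with Myc on. The scores' scale is not given in the sources used here, so this limit may weigh libraries unequally.

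H3K27ac covered the whole H19 window in every tumour. Coverage was 100% in all 3 switched-off tumours and all 4 tumours with Myc on, and 0% in the 4 control livers. Tumours with Myc on lay above control livers in 9.56% of 58984 windows of that length, and switched-off tumours in 24.5%. A complete difference of 100 points between tumours with Myc on and control livers was shared by 16 other windows. By blocks the H19 window was 82.6% ± 7.36 covered in switched-off tumours (SD, n = 3), 78.0% ± 1.95 in tumours with Myc on (SD, n = 4) and 0% in control livers.

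The H19 window lay inside a far longer acetylated domain. In switched-off tumours 1 to 3 the H3K27ac peak over H19 was 71.7, 85.5 and 99.1 kb long, and in tumours with Myc on 1 to 4 it was 68.8, 60.9, 64.5 and 64.9 kb. The means were 85.4 ± 13.7 kb (SD, n = 3) and 64.8 ± 3.23 kb (SD, n = 4), and the groups did not overlap. Switched-off lists were wider in general: H3K27ac coverage was higher in every switched-off tumour than in every tumour with Myc on in 18.9% of windows of H19 length and lower in 0.751%. The domain ranked 50, 58 and 20 by width in the lists of switched-off tumours, and 15, 9, 43 and 17 in those of tumours with Myc on. By score it ranked 4 of 13688, 92 of 16499 and 640 of 17856 in switched-off tumours, and 1841 of 15510, 868 of 13726, 1257 of 14014 and 94 of 12805 in tumours with Myc on. All 3 switched-off tumours shared chr7:149701394-149767388 and all 4 tumours with Myc on shared chr7:149705763-149766625. The domain thus ran from the edge peak described above, past the 3′ side of H19, through the side on which the H19 enhancers are known to lie.

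On Igf2 the H3K27ac was nearly as wide within the window but of lower score. It covered 95.1%, 84.2% and 85.4% of the window in switched-off tumours, 87.0%, 83.6%, 91.5% and 53.7% in tumours with Myc on, and 0% in control livers. Means were 88.2% ± 6.0 (SD, n = 3), 79.0% ± 17.2 (SD, n = 4) and 0%. Tumours with Myc on lay above control livers, as in 10.2% of 49112 windows of that length, and switched-off tumours as in 25.9%. A difference of tumours with Myc on from control livers of at least 79.0 points was found in 108 of those windows. The blocks, however, covered 21.6% ± 7.49 of the window in switched-off tumours (SD, n = 3) and 8.23% ± 5.21 in tumours with Myc on (SD, n = 4). The groups did not overlap by blocks: switched-off tumours had 16.9% to 30.3%, and tumours with Myc on 3.45% to 14.7%. By whole peaks, every switched-off tumour lay above every tumour with Myc on in 20.4% of Igf2-length windows, and below in 0.688%. Such a share was not computed for blocks. In tumours with Myc on no Igf2 peak reached 2897, the median score of all H3K27ac peaks. Under that limit their difference from control livers was 0 points, against 78.7 points for switched-off tumours. Within its own list the best Igf2 peak ranked 60.62% to 73.71% of the way down in tumours with Myc on. In switched-off tumours it ranked 21.14% to 55.15% down. The scores' scale is not given in the sources used here, so this limit may weigh libraries unequally.

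**Figure D2:**
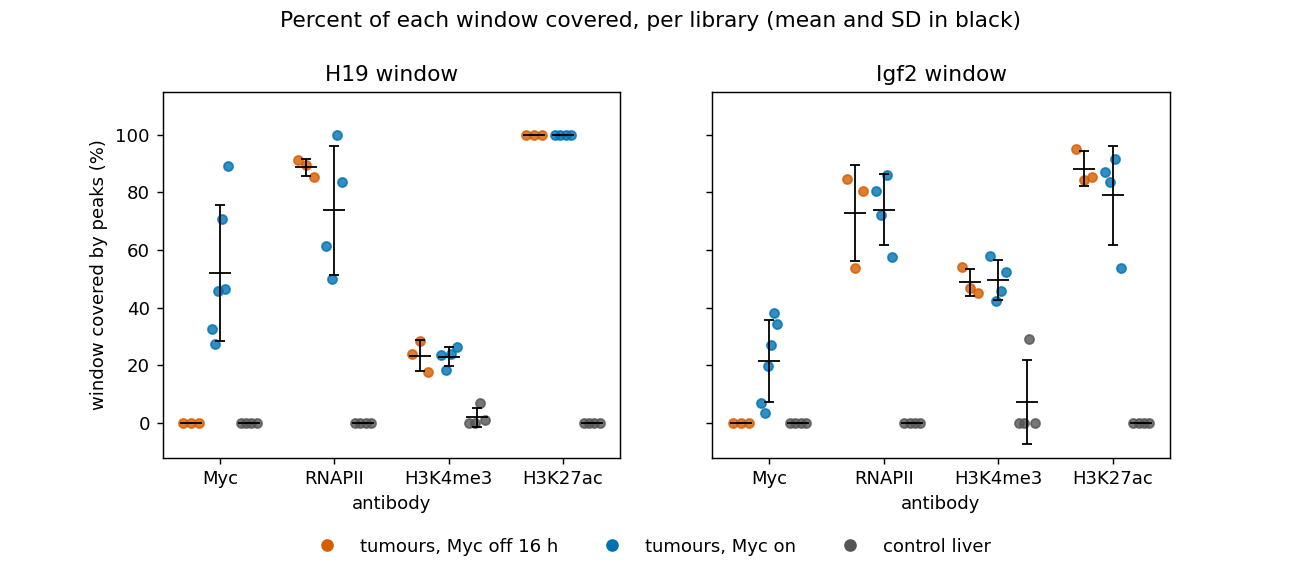
Percent of the H19 window (left) and of the Igf2 window (right) covered by peaks, by antibody; each point is a library, and the black bars are the group mean and SD. Switched-off tumours and tumours with Myc on overlap for RNAPII, H3K4me3 and H3K27ac, and Myc coverage is 0% in switched-off tumours and control livers.

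After 16 h without the transgene, Myc was the antibody with no peak called at the locus. The switched-off Myc lists held only 98 to 331 peaks. They had a peak in 0.184% to 0.725% of the H19-length windows with Myc coverage anywhere, so an empty window was usual in them. The switched-off tumours differed from the tumours with Myc on by -52.0 points at H19 and -21.6 points at Igf2 in Myc coverage. For RNAPII the differences were 15.0 points at H19 and -1.03 points at Igf2, for H3K4me3 0.327 and -0.86 points, and for H3K27ac 0 and 9.27 points, and in each of these the groups overlapped by whole peaks. The sign of the RNAPII difference at Igf2 and of both H3K4me3 differences turned when single libraries were left out, so these 3 differences have no stable direction. By blocks, in contrast, the Igf2 groups did not overlap for either histone mark. Switched-off tumours lay 10.2 points above tumours with Myc on for H3K4me3 and 13.4 points above them for H3K27ac. How common this is over the genome was computed for whole peaks only. Every switched-off tumour then lay above every tumour with Myc on in 31.0% of Igf2-length windows for H3K4me3 and 20.4% for H3K27ac. The RNAPII groups held 3 and 4 libraries, with SDs of up to 22.4 points at H19 and 16.7 points at Igf2. No detection limit was computed, so a small RNAPII difference cannot be told from none. The near-zero H3K4me3 differences stand against a genome in which 29.9% of H19-length windows had more H3K4me3 coverage in every switched-off tumour than in every tumour with Myc on, and 0.753% less.

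The constant Myc segments and H3K4me3 occupied different parts of the H19 window. All 7 constant Myc segments lay outside H3K4me3 peaks in every library, and the bases under Myc in all 6 tumours and under H3K4me3 in all 4 tumours with Myc on numbered 0. Myc was not absent from the H3K4me3 stretch, however. Tumours 1, 2, 3, 4 and 6 had a Myc peak there, at chr7:149760615-149761673 in tumour 1 and chr7:149759338-149763391 in tumour 4. Only tumour 5 had none, which kept this site out of the constant segments. The H3K4me3 peaks of tumours with Myc on began between 149759712 and 149760995. H3K27ac covered the 7 segments completely in all 3 switched-off tumours and all 4 tumours with Myc on. RNAPII covered them completely in the switched-off tumours, and to between 50.0% and 100% on average in tumours with Myc on. RNAPII, H3K4me3 and H3K27ac coincided over 3667 bp in every switched-off tumour and 3462 bp in every tumour with Myc on, on the 5′ side of H19. Constant Myc at H19 thus lay on the 3′ side of that triple-marked stretch, over acetylated chromatin.

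**Figure D3:**
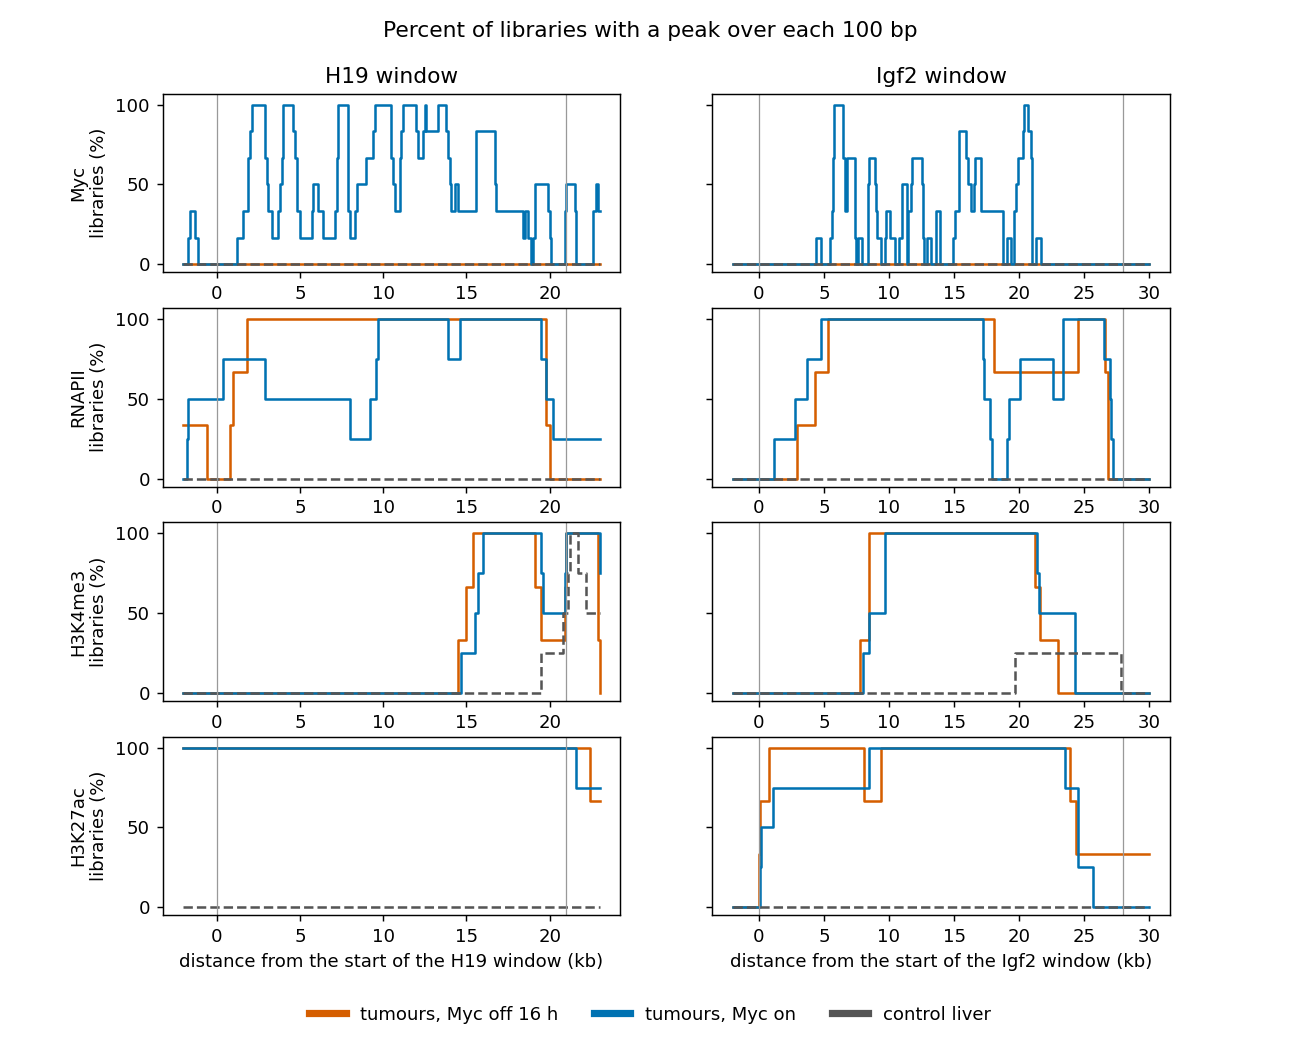
Percent of libraries with a peak over each 100 bp of the H19 window (left) and Igf2 window (right), against distance in kb from the window's start; vertical lines are the window's ends, and lines are switched-off tumours, tumours with Myc on and control livers (dashed). Myc reaches 100% of tumours with Myc on at 7 places in H19, all to the left of the H3K4me3 plateau, and at 2 places in Igf2, one of them inside it.

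Igf2 differed from H19 in this respect. Of its constant Myc segments, the one at chr7:149850419-149850708 was under H3K4me3 in all 3 switched-off tumours and all 4 tumours with Myc on, and in control liver 3. The other, at chr7:149835835-149836496, was under no H3K4me3 peak in any library, and under RNAPII in all 3 switched-off tumours and all 4 tumours with Myc on. H3K27ac covered it in all 3 switched-off tumours and in 3 of 4 tumours with Myc on. RNAPII, H3K4me3 and H3K27ac coincided over 8701 bp of Igf2 in every switched-off tumour and 7461 bp in every tumour with Myc on.

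The chromatin around the windows was not uniform. In the 50 kb on the low-coordinate side of H19, H3K27ac covered 92.7% ± 6.57 in switched-off tumours (SD, n = 3), 79.6% ± 0.767 in tumours with Myc on (SD, n = 4) and 13.7% ± 9.56 in control livers (SD, n = 4). That flank held a site active in normal liver too: H3K4me3 at chr7:149718616-149720164 and RNAPII at chr7:149718982-149719878 were present in all 4 control livers. All 6 tumours with Myc on had a Myc peak over chr7:149718995-149719708, ranked 52, 182, 23, 153, 365 and 60 in their lists, and control liver 4 had one within the same merged region. The nearest protein-coding gene before H19 in RefSeq order is Mrpl23, which encodes a mitochondrial ribosomal protein; the peak lists do not say which gene the site belongs to.

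Between the windows little was marked in control liver. H3K27ac covered 33.8% ± 17.9 of the gap in switched-off tumours (SD, n = 3), 22.4% ± 23.3 in tumours with Myc on (SD, n = 4) and 0% in control livers. All 3 switched-off tumours shared H3K27ac at chr7:149788727-149800006. RNAPII peaks merged at chr7:149794937-149800196 were present in 1 of 3 switched-off tumours, 3 of 4 tumours with Myc on and no control liver. Of the 5 merged Myc regions in the gap, 1 was present in at least 3 of 6 tumours. Beyond Igf2, the 50 kb on the high-coordinate side held H3K27ac in a single switched-off tumour, where it covered 11.1%, and Myc in a single tumour with Myc on, where it covered 0.938%.

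**Figure D4:**
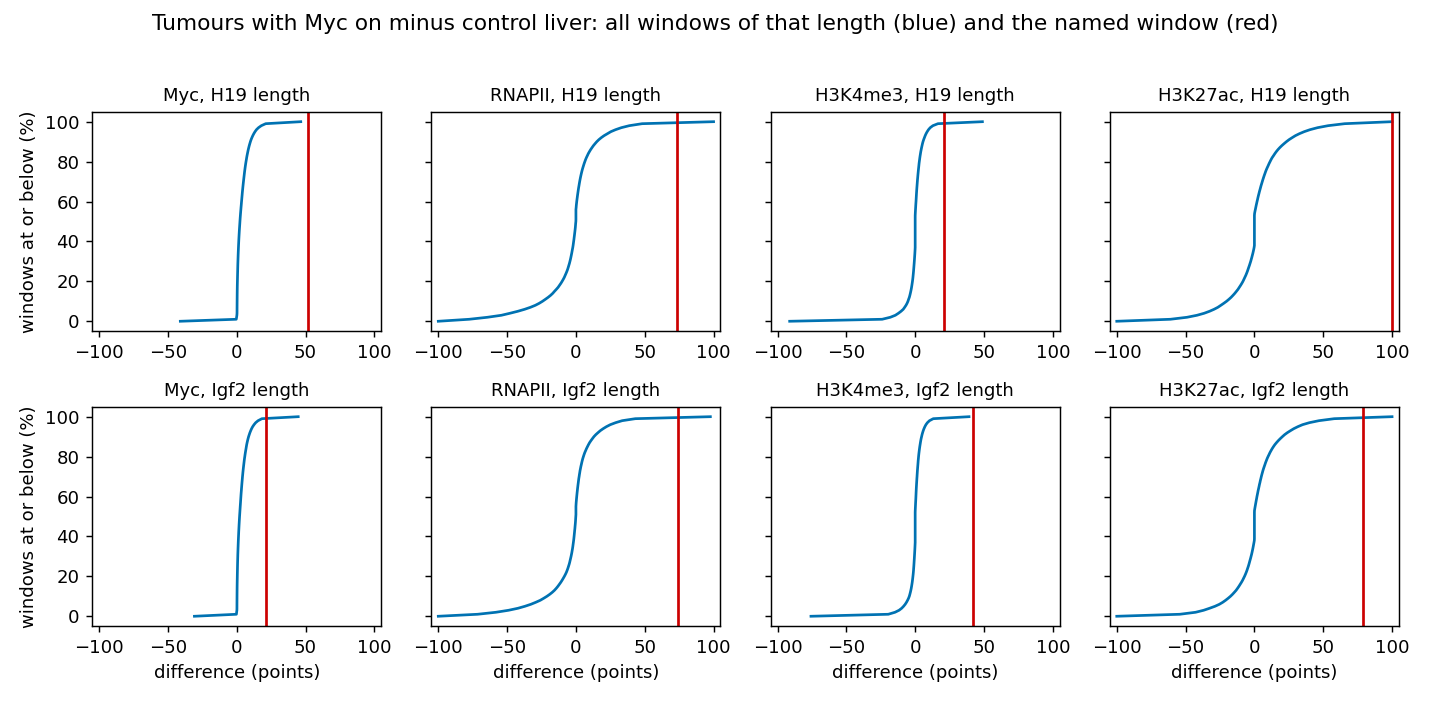
Cumulative share of genome windows (blue) by the difference in percent covered between tumours with Myc on and control livers, for each antibody. Windows are those covered in at least 1 library of that antibody, of H19 length (top) or Igf2 length (bottom). The red line is the named window. The H19 line lies beyond all 63735 other windows for Myc, and the Igf2 line beyond all 39162 for H3K4me3.

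Other windows with a similar pattern over the 46 libraries were found by the mean absolute difference in percent covered. The 3 nearest to H19 were chr9:64942501-64963501, chr9:114450001-114471001 and chr2:150475501-150496501, at 9.05, 9.18 and 9.94 points, against a median of 36.4 points over 83609 windows. The 3 nearest to Igf2 were chr9:114450001-114478001, chr19:44366001-44394001 and chr19:44352001-44380001, at 7.85, 9.85 and 9.86 points, against a median of 33.4 points over 68834 windows. The last pair overlap each other. The chromosome 9 stretch near 114450001 was thus among the nearest to both H19 and Igf2. At H19 length it had 0% Myc coverage in switched-off tumours, 33.9% in tumours with Myc on and 0% in control livers. H3K27ac was at 100% in both kinds of tumour and 0% in control livers. Its RNAPII was 58.5% in switched-off tumours and 60.4% in tumours with Myc on, against 88.7% and 73.7% at H19. Its H3K4me3 was 41.1% and 39.1%, against 23.4% and 23.1% at H19. Myc in tumours with Myc on averaged 52.0% at H19. No gene is named there because no annotation of mm9 was used.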

How the data were processed

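ChIP-seq peak lists of 46 libraries were read as the authors deposited them; the input sample was not analysed here. Members and lists were chosen with earlier results of these data known. Per the submitters' processing notes, BWA 0.6.2 and SAMtools were used and the build was mm9; the caller's settings are not given in the sources used here. Each library has its own list. The authors' score for each Myc, H3K4me3 and H3K27ac peak, of unstated scale, was used only to rank and filter; RNAPII lists, as deposited, hold positions only. The histone lists are in a gapped-peak layout per the file headers; blocks of 1 bp, which mark peak ends, were left out. The same track codes stand in both histone lists of each of 11 samples, per the file headers. In the tumours with Myc on these codes begin with Twt, a prefix that was not interpreted here.

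Percent of a window covered was computed per library (coordinates from 1), with mean, SD and whether groups overlapped, in Python 3.11.15 with numpy 2.4.6, pandas 2.3.3 and matplotlib 3.10.9, and checked on simulated peaks. The background is every genome window of the same length (steps of 10500 and 14000 bp) covered in at least 1 library of the antibody. Merged regions with a peak in 50% or more of the libraries of any group are described; shared segments, blocks and flanks were added after values were seen. Depth is unknown. Alternatives were windows widened by 5 kb, a score limit, blocks, 200 bp or midpoint overlap, wild-type controls alone and leaving out each library.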

Additional observations from a re-analysis of the deposited data

Results flagged for a closer look

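Control liver 3 stood far from the other control livers in H3K4me3 at both windows: 6.96% of the H19 window and 29.0% of the Igf2 window were covered, against 0% to 0.933% and 0% in the other 3. The gap was picked by a cut-off that about 5% of groups would pass if coverage were normally distributed. Coverage with many values of 0% is not, so no rate can be given here. At Igf2 the other 3 control livers had 0%, so any coverage in control liver 3 would have been flagged. Of the 9 groups of 4 or more libraries with any spread, these were the 2 in which 1 library lay this far out; the groups of 3 switched-off tumours were not examined for this. At H19 the coverage was the edge of a peak centred outside the window, with no block inside. At Igf2 it was a peak ranked 14905 of 15011 with a block of 322 bp. Control liver 3 was wild type. Without it the H3K4me3 differences between tumours and control livers kept their direction. That could not have come out otherwise, since its coverage was the highest of the control livers at both windows.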

How the results depend on the processing

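No paired analysis was possible because the results come from no test. Of 254 alternative values, 228 moved by less than 1 SD and 26 by more. All 184 values that left out 1 library and all 16 with wild-type controls alone were among the 228. Those could not have come out otherwise: leaving out 1 library, or keeping the wild-type controls alone, cannot move a group mean by 1 SD of that group. They are therefore no evidence of stability. Differences are in points, for tumours with Myc on minus control (on-control), switched-off minus control (off-control) and switched-off minus on (off-on). The sign turned in 12 alternatives, 9 of them leaving out 1 library, all of 3 small off-on differences. RNAPII at Igf2 (-1.03) became 8.52 without switched-off tumour 2, 1.08 without tumour 1 with Myc on and 2.95 without tumour 3. H3K4me3 at H19 (0.327) became -1.49 with wider windows, -2.22 without switched-off tumour 2 and -1.18 without tumour 2 with Myc on. H3K4me3 at Igf2 (-0.86) became 0.103 and 0.913 without switched-off tumours 2 and 3, 1.93 and 0.03 without tumours 1 and 4 with Myc on, and turned with the score limit and blocks given below. With windows 5 kb wider each side, RNAPII off-control was 66.3 at H19, and at Igf2 RNAPII was 54.5 on-control and 53.8 off-control. H3K4me3 at H19 was 16.5 on-control and 15.0 off-control. H3K27ac at H19 was 94.3 on-control, 1.83 off-on and 96.1 off-control, and at Igf2 58.2 on-control and 69.4 off-control. With peaks at or above the median score, H3K4me3 at H19 was 6.58 on-control and 16.7 off-on, and at Igf2 0 on-control and 48.8 off-on. H3K27ac at Igf2 was 0 on-control, 78.7 off-on and 78.7 off-control. By blocks, H3K4me3 at H19 was 11.2 on-control and 12.9 off-control, and at Igf2 26.2 on-control and 10.2 off-on. H3K27ac by blocks at H19 was 78.0 on-control, 4.66 off-on and 82.6 off-control, and at Igf2 8.23 on-control and 21.6 off-control. The cause was not tested, except that wider windows add flank and blocks are shorter than peaks by construction. RNAPII had no score, so no score limit was run for it. By peak midpoint, 1 of 3 switched-off tumours and 0 of 4 tumours with Myc on had an H3K27ac peak at H19, since its peaks are longer than the window. Unknown depth limits every absence to "no peak called".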
